A study of Mus musculus with 2 samples.

Results

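Box C/D small nucleolar RNAs (snoRNAs) were read by 80 probe sets of a mouse gene array on which activated CD8+ T cells grown with bezafibrate were compared with cells grown with its solvent. Members were all probe sets whose platform gene symbol starts with Snord: 47 probe sets name 1 such gene each and form the main set, of 23521 probe sets with 1 symbol and a value (22180 genes), and 33 probe sets name several genes and are described separately. The DMSO group was 1 array of naive CD8+ T cells stimulated by beads that carry antibodies to CD3 and CD28 and expanded in interleukin-2 at 100 U/mL, with DMSO (dimethyl sulfoxide) added. The bezafibrate group was 1 array of cells stimulated and expanded in the same way with bezafibrate, a lipid-lowering agonist of the peroxisome proliferator-activated receptors, at 30 µM throughout, and the design text has the culture run to day 13. The labels state no mouse strain or age, and no number of cultures behind each array. The comparison asks which RNAs differ in T cells expanded with bezafibrate. Since each group has 1 array, no value has a replicate error, no test was run, and each difference below is one between 2 arrays and not one between conditions.

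Box C/D snoRNAs are short nuclear RNAs that fold into a particle with fibrillarin, Nop56, Nop58 and Snu13 and guide methylation of the ribose of ribosomal RNA by base pairing; a few of them direct cleavage of the ribosomal RNA precursor or another modification. In mammals most are not made from promoters of their own: they lie in introns of host genes and are released when the intron of the host transcript is spliced out, debranched and trimmed. Many host genes encode ribosomal proteins or ribosome assembly factors, and others, the Snhg genes and Gas5, have no known protein product, so that the spliced host RNA and the snoRNA can have quite different lifetimes. In activated T cells, ribosome production grows strongly with entry into the cell cycle.

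Nearly all box C/D snoRNAs had a higher signal on the bezafibrate array. Among the 47 members, 44 had a higher signal and 3 a lower one. Their median log2 difference (bezafibrate minus DMSO) was 0.50, with quartiles of 0.29 and 0.68, and a range from −0.28 for Snord85 to 1.60 for Snord1b. Over all 23521 single-symbol probe sets the median difference was 0.00 and 44.3% were higher. At least 1.5-fold higher were 19 of the 47 members, against 1.29% of all probe sets, and 0 members were at least 1.5-fold lower, against 1.25%. At 2-fold, 2 members were higher, against 0.0978% of all probe sets, and 0 lower, against 0.0893%. Members were chosen by gene symbol, but the group was selected on these same RMA differences between both arrays, so the counts describe it and nothing is read from the background shares.

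The floor used for counting was the median signal of all single-symbol probe sets, 4.84 for DMSO and 4.81 for bezafibrate, and a probe set counted as above it when its brighter array was. Of the members, 43 were above the floor, 1 of them (Snord91a, at 4.68 and 4.98) only through the bezafibrate array, and 4 were below it: Snord52, Snord85, Snord90 and Snord123. Above the floor, 2 members were at least 2-fold higher, against 0.0987% of the 12155 probe sets above it, and 17 were at least 1.5-fold higher, against 0.708%. None of the members above the floor was at least 1.5-fold lower (0 of 43, against 0.559% of all). The member nearest outside the 2-fold limit was Snord16a at 0.91 and the nearest inside was Snord22 at 1.27. At the 1.5-fold limit, Snord17 lay just outside at 0.56 and Snord88c just inside at 0.60.

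**Figure D1:**
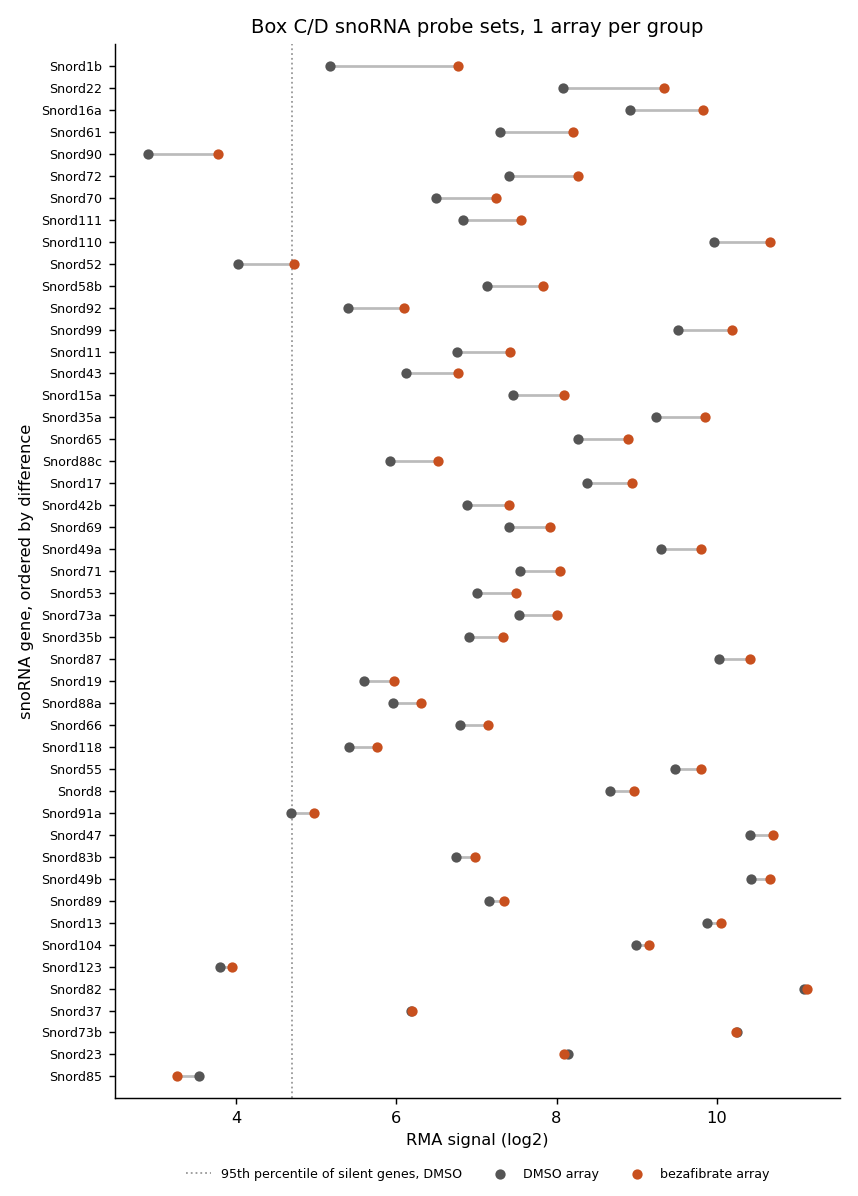
RMA signal (log2, horizontal axis) of each of the 47 single-symbol Snord probe sets, ordered by difference, on the DMSO array (grey points) and the bezafibrate array (orange points), with 1 array per group; the dotted line is the 95th percentile of olfactory and vomeronasal receptor genes on the DMSO array. The orange point lies to the right for 44 members, and the widest gaps belong to Snord1b (1.60) and Snord22 (1.27).

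Snord1b and Snord22 were the members past 2-fold. Snord1b, in an intron of Snhg16, had a log2 signal of 5.18 on the DMSO array and 6.78 on the bezafibrate array, 3.03-fold higher. Snord22, the U22 RNA that is required for maturation of 18S ribosomal RNA and lies in Snhg1, had signals of 8.08 and 9.35, 2.41-fold higher. Both are among the snoRNAs of noncoding host genes. The Snord1b value has company in probe sets that cannot tell it from its close copy Snord1c: they had 5.48 and 6.54 (difference 1.06), and 5.73 and 6.75 (1.02). These are not independent readings, because Snord1b and Snord1c RNA can bind the same probes.

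Next came 8 members that were above the floor with differences between 0.91 and 0.70. Snord16a, from Rpl4, was at 8.92 and 9.83. Snord61, from Rbmx, was at 7.30 and 8.21, and Snord72, from Rpl37, at 7.41 and 8.26. Snord61 and Snord72, with Snord68, are commonly sold as reference RNAs for normalising microRNA assays; they were 1.88-fold and 1.81-fold higher here, while the probe set that Snord68 shares with Rpl13 and a pseudogene differed by 0.24. Snord70 (6.50 and 7.24), Snord111 (6.83 and 7.55), Snord110 (9.96 and 10.67), Snord58b (7.14 and 7.84) and Snord92 (5.40 and 6.10) completed this range. All of these signals lay above the background limit on both arrays.

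Members inside noncoding genes covered a wide range. Snord99, from Snhg12, differed by 0.67, Snord65, from 2410006H16Rik, by 0.61 and Snord52, below the floor, by 0.70. Snord87, from Snhg6, was at 10.03 and 10.42 (0.39), while Snhg6 itself was at 8.62 and 8.59. Snord47, from Gas5, a gene named for its rise in growth-arrested cells, was at 10.42 and 10.70 (0.28), and Gas5 had no single-symbol probe set. Snord104, inside Gm36220, was at 8.99 and 9.15 (0.16). Among members inside protein-coding genes, Snord17, from the sorting nexin gene Snx5 and the longest member, was at 8.38 and 8.94. Snord66, from the initiation factor gene Eif4g1, was at 6.80 and 7.14. Snord71 was at 7.55 and 8.05, and Snord8 at 8.67 and 8.97. Both are counted with the noncoding hosts, by their smallest containing genes Gm17344 and Gm26590. Snord71 also lies inside Ap1g1, and Snord8 inside the chromatin remodeller gene Chd8. The outer genes Ap1g1 and Chd8 differed by 0.10 and 0.11. In each of these cases the snoRNA difference was the larger one where both could be measured.

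The background limit is the 95th percentile of 1405 probe sets of olfactory and vomeronasal receptors, sensory genes taken as silent in T cells: 4.70 for DMSO and 4.68 for bezafibrate. Differences of these silent probe sets had a robust SD of 0.30 and a median of 0.00. Snord90, Snord123 and Snord85 were within background on their brighter array, with signals of 2.90 and 3.77, 3.80 and 3.95, and 3.54 and 3.26. Snord52 passed the limit on the bezafibrate array alone, at 4.02 and 4.73, and so did Snord91a, at 4.68 and 4.98. The direction of these 5 members therefore rests on signals at or near background.

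At the other end, 4 members above the floor had nearly equal signals on both arrays: Snord82 (11.08 and 11.13), Snord37 (6.18 and 6.20), Snord73b (10.25 and 10.24) and Snord23 (8.15 and 8.09). Snord82 lies in the gene of nucleolin, a major nucleolar protein, and Snord37 in the gene of the elongation factor Eef2. Snord23, in the ribosome assembly gene Nop53, and Snord73b, in Rps3a1, were the only members above the floor that were not higher on the bezafibrate array. Their differences were −0.05 and 0.00 to the second decimal.

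Besides Snord22, some members have functions other than routine ribose methylation or a promoter of their own. Snord13 (U13), which guides an acetylation of 18S ribosomal RNA, had signals of 9.88 and 10.05, a difference of 0.17. Snord118 (U8), needed for maturation of 5.8S and 28S ribosomal RNA, had 5.41 and 5.75, a difference of 0.34. Both are independently transcribed, and no annotated gene contains them. The third member that no annotated gene contains, Snord89, had 7.15 and 7.34. The median of these 3 members was 0.19, against 0.50 for the 13 members inside noncoding genes, 0.57 for the 12 inside ribosomal protein genes and 0.51 for the 19 inside other protein-coding genes. With 3 members in the first group no difference between these medians is claimed.

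The difference had little relation to signal. Across the 47 members, which share both arrays and are not replicates, Spearman's rho of difference and mean signal was −0.10 and Pearson's r −0.06. In bins of mean log2 signal, the median difference was 0.54 for the 6 members from 4 to 6, 0.52 for the 20 members from 6 to 8 and 0.53 for the 12 members from 8 to 10. It was 0.26 for the 6 members above 10 and 0.15 for the 3 below 4. All probe sets of the same bins had medians between −0.03 and 0.02. In the bin from 6 to 8, 15 of 20 members exceeded the 97.5th percentile of all probe sets there, which was 0.42. Over all bins 29 of 47 members exceeded that percentile of their bin. The group was selected on these same differences, so these counts describe it and nothing is read from the percentile. A probe set's signal also depends on its probes, so signals are not compared between snoRNAs. Annotated length, from 48 to 221 bases with a median of 68, had a Spearman's rho of −0.18 and a Pearson's r of 0.04 with the difference.

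**Figure D2:**
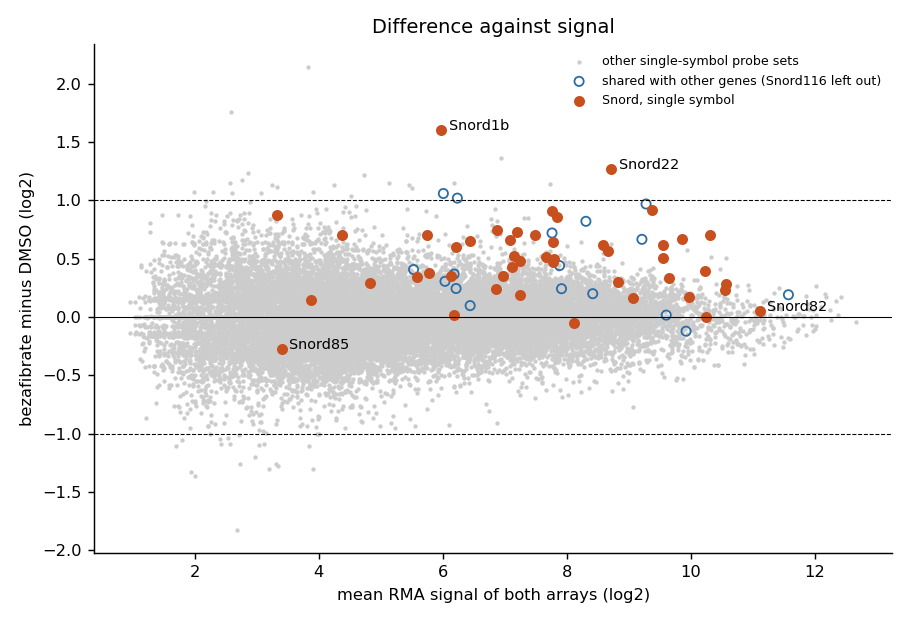
Difference between the arrays (bezafibrate minus DMSO, log2) against the mean RMA signal of both arrays (log2) for all single-symbol probe sets (grey), the 47 Snord members (filled orange) and the probe sets a Snord gene shares with other genes, without Snord116 (open blue); dashed lines mark 2-fold. Of the members, 44 lie above 0, with Snord1b and Snord22 above the upper line, and 3 lie below 0, with Snord85 lowest at −0.28.

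Host genes were assigned from the RefSeq annotation of GRCm38.p6, as the smallest longer gene that contains the whole snoRNA gene; the annotation table gives no strand, so a containing gene on the other strand could not be set aside. This gave a host to 44 of 47 members, 36 hosts in all. For 5 members more than 1 gene contains the snoRNA, among them Snord87 (Snhg6 and Mcmdc2), Snord91a (Tsr1 and Srr), Snord8 (Gm26590 and Chd8) and Snord71 (Gm17344 and Ap1g1). Of the hosts, 25 had a single-symbol probe set of their own, which gave 33 pairs of snoRNA and host. Where a host had several probe sets, the one with the highest mean signal stood for it. Among the members, probe set numbers run with the chromosomes. For Rpl3, Rps3a1 and Rpl23a, the number of the probe set used lies far from those of the snoRNAs inside them. Those host probe sets may therefore read copies elsewhere in the genome, which was not tested.

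The hosts as a group differed little between the arrays. Their median difference was 0.04, with quartiles of −0.08 and 0.19 and a range from −0.34 to 0.40. Of the hosts, 15 were higher and 10 lower. The lowest, Snhg18, was below the floor and within background, at 3.78 and 3.44. In 32 of 33 pairs the difference of the snoRNA exceeded that of its host, with a median excess of 0.54 and quartiles of 0.36 and 0.74. The snoRNAs were selected as a group on these same differences, so the excess describes the pairs and nothing more is read from it. The snoRNA also exceeded the highest of its host's probe sets in 31 pairs. Within the 19 hosts read by 1 probe set, 24 of 25 snoRNAs exceeded the host, with a median excess of 0.49. Host and snoRNA went in opposite directions in 12 pairs, where the snoRNA was higher and the host lower. This count depends on the host probe set chosen. Rpl3 and Nop56 count as lower in it, but another probe set of each was higher, by 0.31 and 0.50. The probe sets used for Rpl3, Rps3a1 and Rpl23a may read copies. In the pair of Snord123 and Snhg18, which is in the count, snoRNA and host were both within background. The exception among the pairs was Snord82, at 0.05 against 0.20 for Ncl.

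Larger host differences went with larger snoRNA differences. Across the 33 pairs, of which some share a host and all share both arrays, Spearman's rho was 0.50 and Pearson's r 0.50; with 1 probe set per host, rho was 0.46 over 25 pairs. The 19 members of hosts that were higher had a median of 0.67 and the 14 members of hosts that were lower had a median of 0.49. Sf3b3, a component of the U2 spliceosomal particle, had the highest host difference, 0.40 (9.14 and 9.54), and its Snord111 had 0.73. Rbmx, an RNA-binding protein gene, differed by 0.37. Snhg12 was at 5.64 and 5.98 (0.34), with Snord99 at 9.52 and 10.19 (0.67). Snhg1 was at 8.36 and 8.68 (0.32), with Snord22 at 1.27. By the probe set of highest signal, these 4 hosts were the only ones with a difference above 0.30. Another probe set of Nop56 differed by 0.50 and another of Rpl3 by 0.31.

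**Figure D3:**
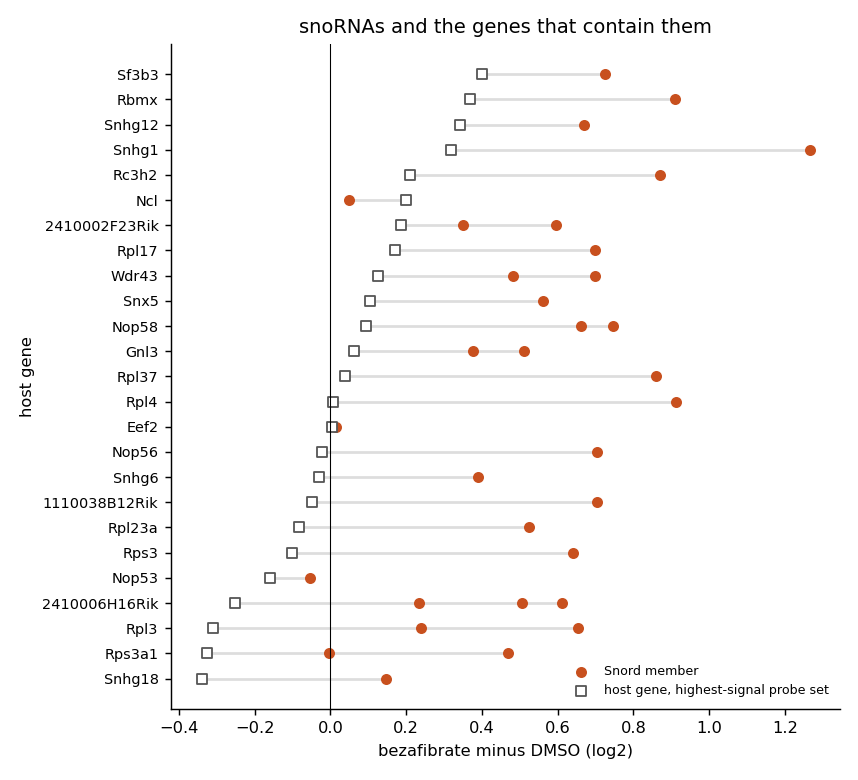
Difference (bezafibrate minus DMSO, log2) of 25 host genes (open squares, probe set with the highest signal) and of the 33 Snord members they contain (orange points), ordered by host. The snoRNA lies to the right of its host in 32 pairs. Hosts run from −0.34 for Snhg18, whose signals were within background, to 0.40 for Sf3b3.

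For 7 hosts, 2 or 3 members could be compared within 1 transcript. The noncoding gene 2410006H16Rik contains Snord49b (10.43 and 10.66, difference 0.23), Snord49a (9.30 and 9.81, 0.51) and Snord65 (8.27 and 8.89, 0.61), while the host itself was lower, at 8.96 and 8.71 (−0.25). Nop58, a core protein of the particle, contains Snord70 and Snord11, whose differences of 0.75 and 0.66 lay closest together. Wdr43, a small-subunit assembly factor, contains Snord92 (0.70) and Snord53 (0.48), and Gnl3, the nucleostemin gene, contains Snord69 (0.51) and Snord19 (0.38). The gene 2410002F23Rik contains Snord88c (0.60) and Snord88a (0.35). Rpl3 contains Snord43 (6.12 and 6.77, 0.65) and Snord83b (6.75 and 6.99, 0.24). Rps3a1 contains Snord73a (0.47) and Snord73b (0.00), the widest spread of the 7 at 0.47. The median spread within a host was 0.25, and the means of the 7 hosts ran from 0.23 for Rps3a1 to 0.70 for Nop58. The widest spread within a host was thus as large as the spread of these means, and the other 6 were smaller.

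Ribosomal protein hosts need caution, since such genes have near-identical processed copies and the probe sets of some disagreed. The probe sets of Rpl3 ranged from −0.31 to 0.31, those of Rps3a1 from −0.51 to −0.32 and those of Rpl4 from −0.19 to 0.01. Both of Rpl23a had exactly the same difference, −0.08, so they may hold 1 reading. The 7 ribosomal protein hosts with a value had a median of −0.08; 3 of them were higher and 4 lower. The 99 single-symbol probe sets of ribosomal protein genes on the array had a median of −0.11; 26 were higher and 72 lower. Snord15a, from Rps3, was at 7.46 and 8.10 (0.64) while Rps3 was at 10.33 and 10.23. Snord42b, from Rpl23a, was at 6.88 and 7.41 (0.52). The probe set used for its host, which may read a copy elsewhere, was at 10.67 and 10.58.

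The Rpl13a gene carries Snord32a, Snord33, Snord34 and Snord35a, a set of snoRNAs known from work on lipid-induced cell death. Only Snord35a had a probe set of its own, with signals of 9.24 and 9.86 and a difference of 0.62. The probe sets that also name Rpl13a had smaller differences: 0.20 with Snord33 and Mir5121 (8.32 and 8.52), 0.19 with Snord32a (11.48 and 11.67) and 0.02 with Snord34 (9.59 and 9.61). How much of these shared signals comes from the host mRNA was not tested.

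Among the shared probe sets, 16 name Snord116l1, Snord116l2 and Gm26504 and hold the same pair of values, 2.94 and 2.77, within background, so they count as 1 reading. The other 17 had a median difference of 0.37, with 16 higher and 1 lower. Differences of at least 1.5-fold were found with Snord57 and Nop56 (8.79 and 9.76, 0.97), Snord2 and the initiation factor gene Eif4a2 (7.90 and 8.72, 0.82), Snord12 and Zfas1 (7.40 and 8.12, 0.72) and Snord15b and Rps3 (8.88 and 9.54, 0.66), besides both probe sets of Snord1b with Snord1c. Snord14, the U14 RNA that takes part in 18S ribosomal RNA processing, was read only together with its hosts, at 7.66 and 8.10 with Rps13 (0.44) and at 9.98 and 9.86 with the chaperone gene Hspa8 (−0.12). The probe set shared by Snord1a and Snhg16 was at 6.09 and 6.34 (0.24), next to 1.60 for Snord1b of the same host. Nop56 also shows how probe sets of 1 locus diverge: its probe set of highest signal differed by −0.02 and another by 0.50, whereas Snord110 differed by 0.70.

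The sequence around the start of host transcripts is shown. Genes of the translation machinery, many snoRNA hosts among them, typically start with a C and a run of pyrimidines, the 5′ terminal oligopyrimidine tract. Sequences are from RefSeq, assembly GRCm38.p6, 40 bases before and 30 after the annotated start, on the strand of the gene; capitals mark the longest run of C and T that opens with C within 10 bases of the start on that strand, where it has at least 6 bases. The hosts shown are the noncoding hosts of Snord22, Snord1b, Snord99, Snord47 and the Snord49 pair, and Rpl13a as a ribosomal protein host. The windows are Snhg1 chr19:8723447-8723516 (plus strand), Snhg16 chr11:116671620-116671689 (plus), Snhg12 chr4:132308638-132308707 (plus), Gas5 chr1:161035126-161035195 (plus), 2410006H16Rik chr11:62602837-62602906 (plus) and Rpl13a chr7:45128716-45128785 (minus).
Snhg1: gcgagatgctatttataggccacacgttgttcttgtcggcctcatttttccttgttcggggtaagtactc
Snhg16: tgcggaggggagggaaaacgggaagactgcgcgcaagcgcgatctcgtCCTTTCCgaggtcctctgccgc
Snhg12: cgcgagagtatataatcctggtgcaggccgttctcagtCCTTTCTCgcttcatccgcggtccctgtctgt
Gas5: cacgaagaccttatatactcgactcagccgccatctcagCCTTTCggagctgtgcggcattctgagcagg
2410006H16Rik: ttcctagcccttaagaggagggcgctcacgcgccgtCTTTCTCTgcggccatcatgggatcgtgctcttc
Rpl13a: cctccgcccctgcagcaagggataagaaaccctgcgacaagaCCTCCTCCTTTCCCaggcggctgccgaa

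Such a run was present in 5 of these 6 host starts and absent by this rule from Snhg1, the host of Snord22. Gas5 has another annotated start, which lacks a run. Of the ribosomal protein hosts with an entry Rpl13a alone had one by this rule, and Rpl4, Rpl37, Rps3 and Rps3a1 had none. Of the 27 hosts with an entry in the promoter table, 11 (40.7%) had a run, and of all 27025 genes with an entry 21.9% had one. The 13 members inside hosts with a run had a median difference of 0.51 and the 21 inside hosts without one had 0.60. Annotated starts can be off by some bases, so an absent run says only that none opens within 10 bases of the annotated start. In Rpl4, Eef2, Wdr43, Gnl3 and Rbmx a run of at least 6 bases opens with C farther away, in the sequence taken, and was counted as absent. The counts and medians above depend on this limit.

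Other RNA classes on the same arrays are given for scale. Box H/ACA snoRNAs (symbols starting Snora), which guide pseudouridylation and mostly share the intronic route, had a median difference of 0.36 over 28 probe sets, with 22 higher and 5 lower, and 4 of them at least 2-fold higher. Small Cajal body RNAs (Scarna) had a median of 0.07 over 6 probe sets that ran from −0.53 to 0.71. MicroRNA genes had a median of 0.05 over 506 probe sets, spliceosomal and other small nuclear RNAs −0.01 over 7, long noncoding RNAs 0.00 over 1973 and protein-coding genes −0.01 over 20155. Quartiles of the box C/D and H/ACA groups overlapped, at 0.29 to 0.68 and 0.07 to 0.59, and no test of that difference was possible with 1 array per group. What part RNA recovery or labelling of short RNAs had in these class differences was not tested.

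**Figure D4:**
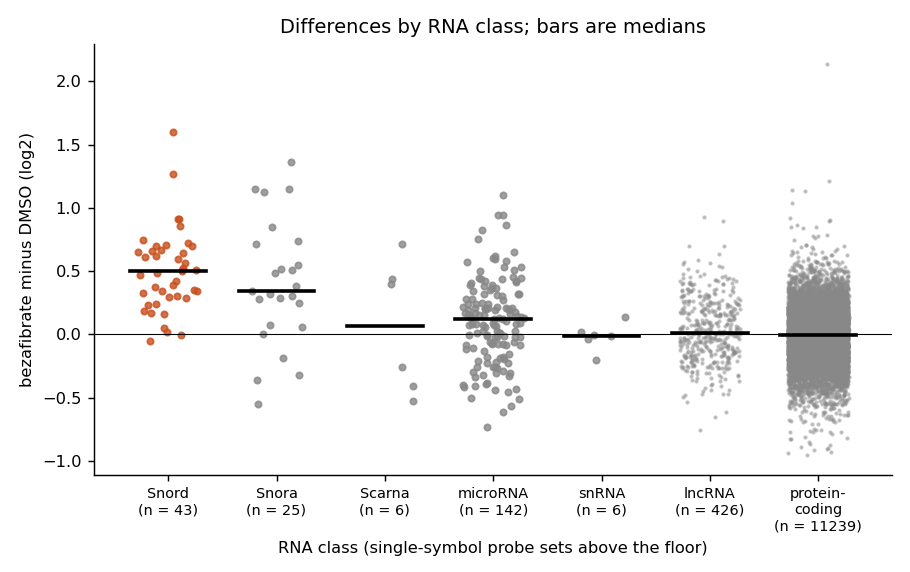
Difference (bezafibrate minus DMSO, log2) of single-symbol probe sets above the floor by RNA class; each point is a probe set and each bar the median of its class. The Snord points centre on 0.50 and the Snora points on 0.34, and the protein-coding median is 0.00 to the second decimal.

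Genes that make or use box C/D particles differed less than the snoRNAs. Of the core proteins, Nop56 was at 10.13 and 10.11, Nop58 at 9.33 and 9.42 and Snu13, the protein that binds the k-turn of the RNA first, at 9.83 and 9.60 (−0.24). Fibrillarin had no single-symbol probe set. The 9 genes of the assembly list had a median of 0.08, which is the value of Zfp330. They ran from −0.39 for Pih1d1 (7.86 and 7.47) and −0.34 for Znhit3 to 0.18 for Ruvbl1, a helicase of the assembly complex. That each listed gene acts in assembly was not checked. The U3 particle and small-subunit processome use U3 snoRNA to fold the 18S precursor. Its 26 genes had a median of 0.11, 15 of them higher and 11 lower, and Heatr1 was highest at 0.30. Of all these genes 0 were 1.5-fold higher or lower, against 0.708% and 0.559% of all probe sets above the floor. The count of 0 is near those shares and says nothing particular about these genes.

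Genes for trimming, export and decay of snoRNAs gave similar small values. The 21 genes of processing and turnover had a median of 0.09, with 12 higher and 9 lower. Nolc1, a nucleolar chaperone of snoRNA particles, was at 8.04 and 8.38 (0.34) and the exonuclease gene Xrn1 at 8.14 and 8.46 (0.33), whereas Coil, the Cajal body protein coilin, was at 5.29 and 4.96 and the exosome gene Exosc5 at 6.61 and 6.29. RNA polymerase I genes had a median of 0.03 over 14, nonsense-mediated decay genes, which limit many spliced Snhg transcripts, 0.03 over 7, and H/ACA core genes 0.00 over 6. In these 4 lists too, 0 genes were 1.5-fold higher or lower, which is again near the shares of 0.708% and 0.559% above the floor.

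The cell labels were checked against markers. All 8 measured markers of the CD8 T cell list were well above background on both arrays. They ran from 7.68 to 11.10 in DMSO and from 7.50 to 11.05 with bezafibrate, and their summed linear signal was 10239 and 9246. The CD8 genes among them are Cd8a (10.82 and 10.68) and Cd8b1 (10.43 and 10.20), and the others mark T cells in general. B cell markers had 1 of 5 above background on either array, NK cell markers 1 of 3, macrophage and monocyte markers 2 of 6, dendritic cell markers 1 of 5, CD4 T cell markers 2 of 4 and neutrophil markers 0 of 5, with summed signals of 106 and 90.1, 123 and 78.4, 189 and 190.0, 106 and 98.5, 91.0 and 105, and 82.1 and 73.1 on the DMSO and bezafibrate arrays. Their part in the snoRNA differences was not tested. In such bulk RNA, fewer cells that make an RNA and less of it per cell cannot be told apart.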

How the data were processed

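Total RNA of both samples was amplified with a whole-transcript kit and hybridised to Affymetrix arrays, per the labels' protocols. The deposited values are log2 signals per probe set, and the submitters' processing notes list RMA and Affymetrix Expression Console as the authors' tools. Versions and the genome build are not given in the sources used. RMA removes background, equalises probe distributions between arrays and summarises probes, so differences are relative to other probe sets. The log2 scale was read from the values (0.75 to 12.68 in DMSO, 0.79 to 12.64 with bezafibrate; medians 4.58 and 4.55).

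Of 41801 rows, 33793 held values: 23521 named 1 gene in the platform annotation, 1814 several and 8458 none. All 47 single-symbol members matched RefSeq (GRCm38.p6) by gene number. Differences are bezafibrate minus DMSO. The design asked for hosts on the same strand; without strand, containment alone was used. Lists used the probe set of highest mean signal per gene. Named genes were the 10 largest differences in each direction above the floor, all past 2-fold, members of shared hosts, fixed functional RNAs and those nearest each limit; some beyond this rule were named after their values were seen. The members and lists were chosen with earlier results of these data known. Alternatives were other floors and limits, quantile normalization, a lowess curve on signal (fraction 0.3), shared probe sets, the mean, and other host rules. Tools were matplotlib 3.10.9, statsmodels 0.14.6, scipy 1.17.1, pandas 2.3.3 and numpy 2.4.6 under Python 3.11.15, and the summaries were tested on simulated data. The number of arrays limits the precision.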

Additional observations from a re-analysis of the deposited data

How the results depend on the processing

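The count of members at least 2-fold higher was 2 and became 4 when probe sets with several symbols were added and 17 at a 1.5-fold limit; it was 2 under the other 6 alternatives (other floors, quantile normalization, lowess, and the brightest or the mean probe set per gene), and the count at least 2-fold lower was 0 in each. The median difference of 0.50 became 0.35 with shared probe sets, whose 16 equal Snord116 readings enter one by one, and lay between 0.47 and 0.51 under the others, including one value per host (0.47), chosen after seeing the data. The excess of snoRNA over host stayed between 0.535 and 0.541. No member moved by more than 0.068 under quantile normalization or lowess, and 44 and 45 of 47 were higher; Snord37 and Snord73b, near 0, changed sign. List medians changed little. No paired analysis was possible because each group has 1 array. Signals at or near background limit Snord52, Snord85, Snord90, Snord91a and Snord123.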
